A study of Rattus norvegicus with 6 samples.

Results

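Transcripts known from red cells and platelets were followed in the aorta of rats that ran and of rats that did not. The genes were Hbb and Hbb-b1, which encode beta-globins, Hba-a1 and Hba-a2, which encode alpha-globins, Alas2, which encodes the haem-making enzyme of red cell precursors, and Pf4, which encodes a platelet chemokine. They were chosen by name, and every probe set that the chip's annotation gives to exactly 1 of these 6 genes was taken. That rule found 4 probe sets, 1 each for Hbb, Hbb-b1, Alas2 and Pf4, among 8799 on the chip and 4736 genes with a symbol of their own. Hba-a1 and Hba-a2 had no probe set of their own, and the probe set that the annotation gives to both of them is described as a joint signal. All 4 passed the filter on dim signals.

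The tissue came from spontaneously hypertensive rats (SHR), an inbred strain in which blood pressure becomes high. Runners had a wheel in the cage and ran voluntarily for 5 weeks, and non-runners were rats of the same strain that did not run. Each array was an Affymetrix rat chip that carried RNA pooled from 3 aortae, with 3 runner arrays and 3 non-runner arrays, called A, B and C in each group. The labels of the runner arrays also give the letters D, E and F, in that order. The labels give no age, sex or division of animals among the pools, and they do not say whether blood was rinsed from the vessels. Nothing says how independent the pools were, so p-values measure only the spread between these arrays, which may be in part technical.

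Haemoglobin is a tetramer of alpha-globin and beta-globin chains, each of which holds a haem group that binds oxygen. Mature mammalian red cells have no nucleus, and their globin RNA is left over from the precursor stage, so young red cells (reticulocytes) carry most of it. Haem is made in several enzyme steps, and Alas2 catalyses the first of them in the red cell lineage. Pf4 (platelet factor 4, CXCL4) is made in megakaryocytes, stored in platelet alpha granules and released when platelets are activated. Which cells of the aorta samples carried these transcripts was not measured. In a bulk sample, fewer cells of a type and less RNA per cell cannot be told apart.

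The upstream sequences of the globin genes are shown because they carry the elements from which globin promoters are known and because they show how alike the paired genes are. The sequences are RefSeq's for the rat assembly GRCr8, made from the BN strain and not from the rats measured here. Each is the 250 bases before the annotated gene start, given 5′ to 3′ on the gene's strand. A sequence was in the table for 5 of the 6 genes. Capitals mark 4 motifs searched on both strands. CCAAT is a common promoter box, CACCC is the core of the site of Klf1-type factors, GATAA is that of GATA factors such as Gata1, and ATAAA is part of the TATA box.
Hbb (chr1:167663722-167663971, minus strand): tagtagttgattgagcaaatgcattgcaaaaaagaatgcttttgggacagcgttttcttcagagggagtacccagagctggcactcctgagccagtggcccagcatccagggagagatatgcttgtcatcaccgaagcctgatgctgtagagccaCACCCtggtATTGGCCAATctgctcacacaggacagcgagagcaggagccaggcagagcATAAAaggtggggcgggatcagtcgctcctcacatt
Hbb-b1 (chr1:167643521-167643770, minus strand): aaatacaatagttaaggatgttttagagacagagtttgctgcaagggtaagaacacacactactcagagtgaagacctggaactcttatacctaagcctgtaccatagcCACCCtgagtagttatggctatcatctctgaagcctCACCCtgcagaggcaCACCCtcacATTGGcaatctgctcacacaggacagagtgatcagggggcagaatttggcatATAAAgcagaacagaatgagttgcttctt
Hba-a1 (chr10:15842581-15842830, minus strand): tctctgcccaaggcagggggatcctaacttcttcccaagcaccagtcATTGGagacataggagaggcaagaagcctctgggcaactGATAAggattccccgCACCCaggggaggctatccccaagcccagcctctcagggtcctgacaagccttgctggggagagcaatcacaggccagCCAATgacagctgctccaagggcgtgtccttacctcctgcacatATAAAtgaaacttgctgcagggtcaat
Hba-a2 (chr10:15829139-15829388, minus strand): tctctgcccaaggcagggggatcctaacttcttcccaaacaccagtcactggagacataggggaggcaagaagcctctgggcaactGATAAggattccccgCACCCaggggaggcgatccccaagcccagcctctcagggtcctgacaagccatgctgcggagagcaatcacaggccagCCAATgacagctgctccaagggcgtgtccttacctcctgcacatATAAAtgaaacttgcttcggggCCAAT

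The CCAAT box, the CACCC core and the ATAAA letters were all present in each of the 4 globin windows, and in 5.5% of 33469 promoter windows of the same length in the table. Taken singly, CCAAT was in 34.0% of those windows, CACCC in 49.2%, ATAAA in 39.3% and GATAA in 23.5%. GATAA was in both alpha-globin windows and in that of Alas2, and no letters of this motif were in the beta-globin windows. In Hbb the CCAAT box lies on both strands, side by side, and no motif overlaps another. A match describes letters only and shows neither a working site nor a cause. Hba-a1 and Hba-a2 were identical at 241 of 250 aligned positions (96.4%), against 58.8% of aligned positions, gaps included, between Hbb and Hbb-b1.

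The values are intensities on a linear scale, 1 per probe set and array. A probe set is a group of short probes along 1 transcript, and its brightness cannot be compared with that of another probe set. Array medians were 28.5 to 32.2, with the highest on runner C. As a mark of background, 40.8 was the 95th percentile, over arrays, of 19 control probe sets whose targets rat RNA should lack, here called the control level. For beta-actin, the probe set at the 3' end over that at the 5' end, a sign of RNA quality, gave 1.22 to 1.43 in runners and 1.28 to 2.14 in non-runners. The highest ratio was on non-runner B and the lowest on runner C. Differences are on the log2(intensity + 2.4) scale after quantile normalization, runner minus non-runner, and understate the change of dim genes. All 5244 probe sets above the filter were fitted with limma, and a two-sided Benjamini-Hochberg adjusted p under 0.05 counted as passing.

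The signals of the Hbb and Hbb-b1 probe sets were higher on all runner arrays than on any non-runner array, but by unequal amounts. Neither difference passed the test, and a probe set given to several beta-globin genes together, described below, had overlapping groups. Hbb measured 1472.7, 1445.7 and 2910.5 on runner arrays A, B and C, against 888.7, 1310.7 and 959.4 on non-runner arrays A, B and C (intensity). The groups did not overlap, yet runners A and B lay near non-runner B, and runner C was 1.99 times the mean of the other runners. The means were 1943 ± 838 in runners, against 1053 ± 226 in non-runners (each SD over n = 3 arrays), with a log2 difference of 0.85 ± 0.30 (SE, 95% interval 0.16 to 1.54, limma adjusted p = 0.572). Without runner C the log2 difference of Hbb was 0.51 ± 0.21 (SE), and without non-runner B it was 1.0 ± 0.33.

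Hbb-b1, the other beta-globin with a probe set of its own, showed the same order of the runner arrays. It measured 556.1, 538 and 1283.5 on runner arrays A, B and C, against 406, 477.8 and 372.1 on non-runner arrays A, B and C. Runner C was 2.35 times the mean of runners A and B, and the non-runner arrays lay close together and below all runners. The means were 793 ± 425 in runners and 419 ± 54.0 in non-runners (each SD over n = 3 arrays), with a log2 difference of 0.80 ± 0.34 (SE, 95% interval 0.01 to 1.59, limma adjusted p = 0.612). Without runner C the log2 difference of Hbb-b1 was 0.38 ± 0.19 (SE). The names of both probe sets carry the suffix f, which on this chip marks probes that match a family of similar sequences, and their log2 levels had a Pearson r of 0.98 over the 6 arrays. Hbb and Hbb-b1 can therefore share signal and are not separate measurements.

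**Figure D1:**
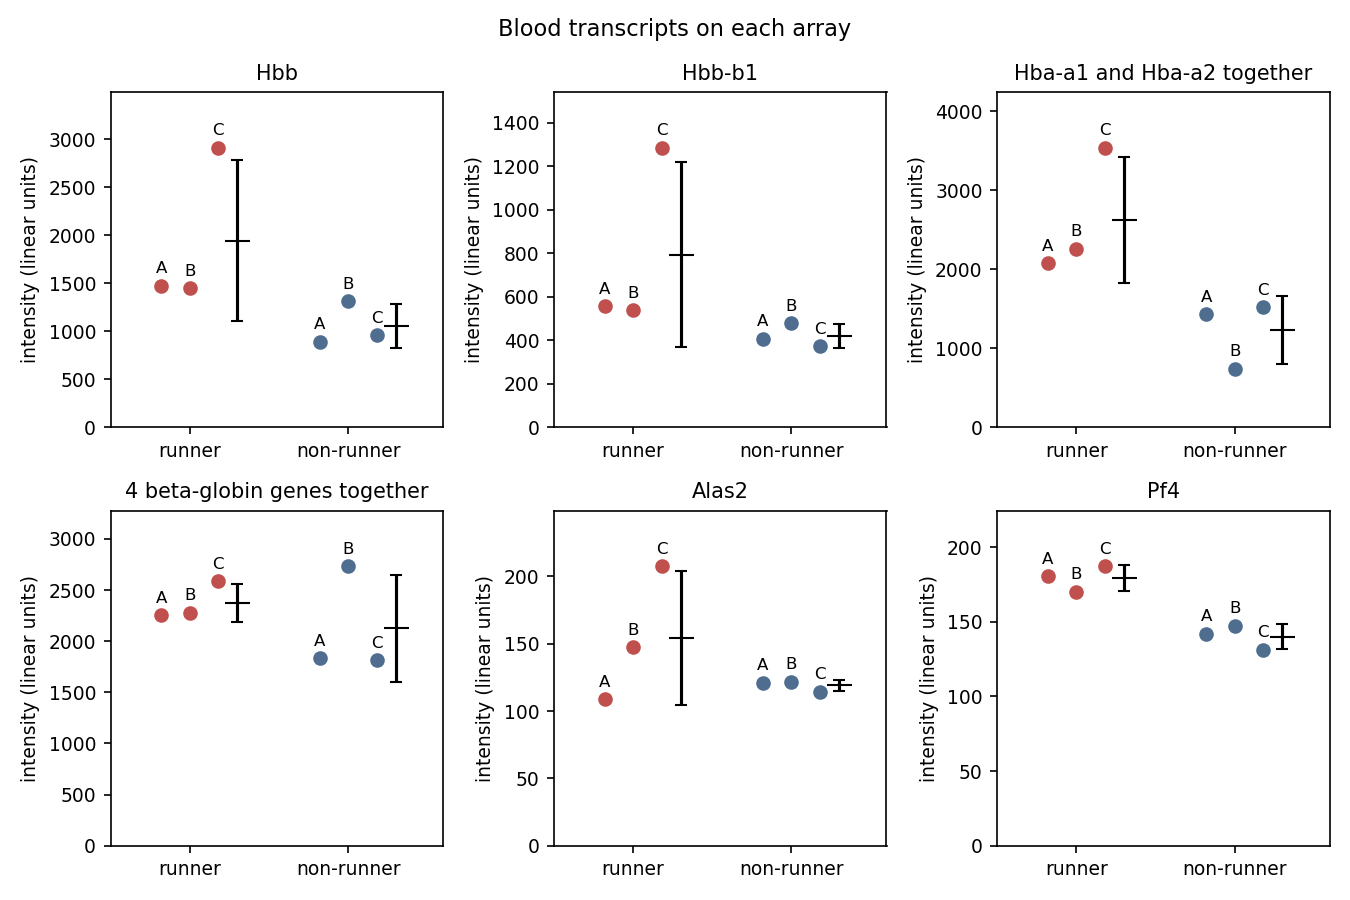
Intensity (linear units, axes from 0) of 6 probe sets on each array, runners left and non-runners right, with letters for the arrays and the mean ± SD (n = 3) beside each group. Runner C is the highest runner in each panel, at 2910.5 for Hbb and 1283.5 for Hbb-b1, whereas the Pf4 values of runners lie within 170 to 187.1.

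The joint alpha-globin signal was also higher in runners, and here non-runner B was the array that stood lowest. The probe set given to both Hba-a1 and Hba-a2 measured 2078.1, 2262.4 and 3538.7 on runner arrays A, B and C, against 1428.7, 737.6 and 1522.1 on non-runner arrays A, B and C. The groups did not overlap, and runner C was again the highest. The means were 2626 ± 795 in runners and 1229 ± 429 in non-runners (each SD over n = 3 arrays), with a log2 difference of 1.18 ± 0.32 (SE, limma adjusted p = 0.439). It was 0.92 ± 0.33 (SE) without runner C and 0.83 ± 0.25 without non-runner B. When the fit took account of the beta-actin ratio, an alternative chosen after the data were seen, it was 0.71 ± 0.30. Since the 2 genes cannot be separated on this chip, no value belongs to either of them alone.

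A further probe set, which the annotation gives to Hbbl1, Hbb-bs, Hbb-b1 and Hbb together, differed less between the groups. It measured 2252.8, 2277.1 and 2585.3 on runner arrays A, B and C, against 1832.2, 2732.3 and 1813.2 on non-runner arrays A, B and C. The groups overlapped, with non-runner B the highest of all 6 arrays in these deposited intensities and runner C the highest after normalization. The log2 difference was 0.23 ± 0.19 (SE, 95% interval -0.20 to 0.66, limma adjusted p = 0.764), with 0.39 ± 0.14 without non-runner B, 0.15 without runner C, 0.12 without non-runner C and 0.13 with arrays centred on their medians. Non-runner B was thus the highest non-runner for this joint beta-globin signal and the lowest of all 6 arrays for the joint alpha-globin signal, and its high beta-actin ratio stands beside both. When the fit took account of that ratio, the log2 difference was 0.39 for the joint beta-globin signal.

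Alas2, the red cell form of 5-aminolevulinate synthase, did not separate the groups. It measured 108.8, 147.4 and 207.5 on runner arrays A, B and C, against 121.2, 121.9 and 114.4 on non-runner arrays A, B and C. The non-runner arrays were nearly equal, whereas the runners spread from below them, on runner A, to well above them, on runner C. The means were 155 ± 49.7 in runners and 119 ± 4.1 in non-runners (each SD over n = 3 arrays), with a log2 difference of 0.33 ± 0.23 (SE, 95% interval -0.19 to 0.85, limma adjusted p = 0.737). Without runner C the log2 difference of Alas2 was 0.10 ± 0.20 (SE), and without runner A it was 0.55 ± 0.20.

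Pf4, the gene of a platelet chemokine, had the smallest SD of the 4 genes in runners. It measured 180.4, 170 and 187.1 on runner arrays A, B and C, against 142, 147.2 and 131.1 on non-runner arrays A, B and C. The groups did not overlap, and runner C was only 1.07 times the mean of the other runners. The means were 179 ± 8.6 in runners and 140 ± 8.2 in non-runners (each SD over n = 3 arrays), a ratio of 1.28, with a log2 difference of 0.35 ± 0.14 (SE, 95% interval 0.03 to 0.67, limma adjusted p = 0.581). As each array was left out in turn, the log2 difference of Pf4 stayed between 0.31 and 0.38, with an adjusted p of 0.478 to 0.894.

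**Figure D2:**
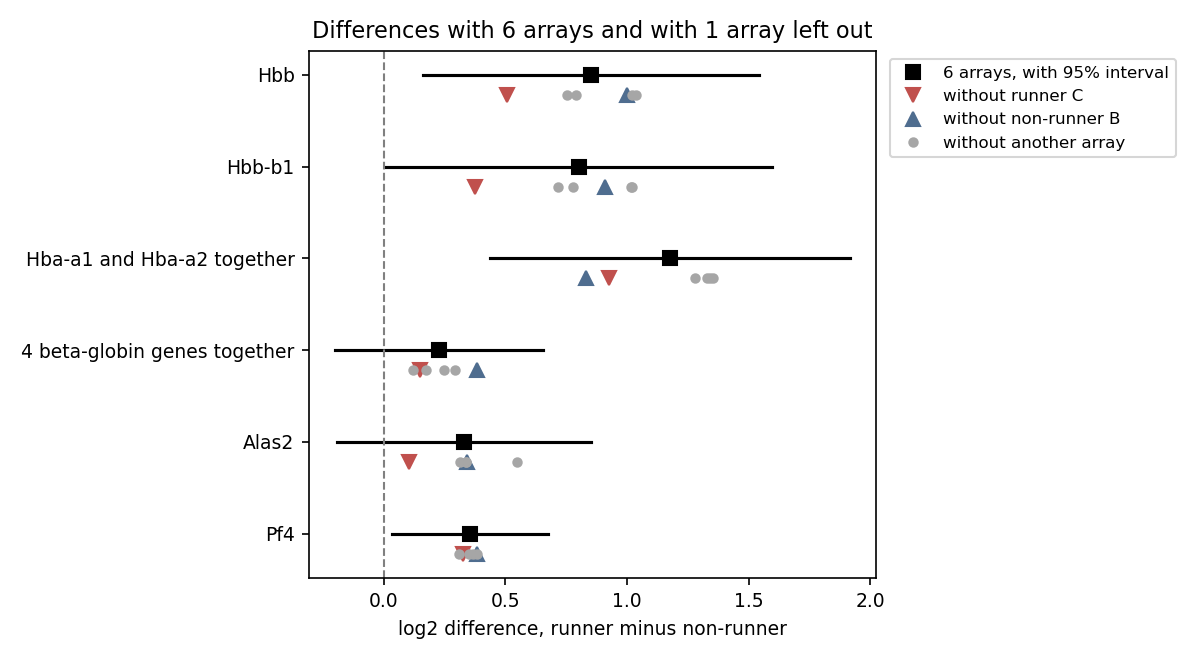
Log2 difference, runner minus non-runner, of 6 probe sets with all 6 arrays (squares, with limma's 95% interval) and with 1 array left out (smaller symbols). Without runner C the value falls to 0.51 for Hbb, 0.38 for Hbb-b1 and 0.10 for Alas2, while that of Pf4 stays at 0.33.

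All 4 genes were higher in runners by their means, 3 of 4 had groups that did not overlap (Hbb, Hbb-b1 and Pf4), and 0 of 4 passed limma's adjusted threshold. Among all 5244 tested probe sets, 0% were higher past that threshold, and 7.23% had non-overlapping groups with runners higher. At an unadjusted limma p under 0.05 the same 3 of 4 were higher, against 3.87% of all tested probe sets. All 4 were highest on runner C, as were 15.0% of tested probe sets. These counts describe few genes that were chosen with the results known, and Hbb and Hbb-b1 share signal. The median log2 difference over all tested probe sets was 0.00.

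Whether the transcripts moved in step was asked with differences of normalized log2 levels on the same array. The 5 such comparisons were tested by exact two-sided permutation of the group labels over the 6 arrays, whose smallest possible p is 0.1, so none could have passed at 0.05 and the values are given as a description. Alas2 minus Hbb was -3.72, -3.25 and -3.85 on runner arrays A, B and C, against -2.89, -3.37 and -3.01 on non-runner arrays A, B and C. Its groups overlapped through runner B and non-runner B, and the runner mean was lower by -0.52 (exact p = 0.2, adjusted over the 5 comparisons 0.5). Pf4 minus Hbb was -3.02, -3.05 and -4.00 on runner arrays A, B and C, against -2.64, -3.09 and -2.84 on non-runner arrays A, B and C. Only runner C stood clearly below the rest, and the group difference was -0.50 (exact p = 0.3, adjusted 0.5), or -0.18 without that array.

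Among the globin signals themselves, which were paired after their values had been seen, Hbb-b1 minus Hbb varied little between the groups. It was -1.33 ± 0.15 in runners and -1.28 ± 0.12 in non-runners (each SD over n = 3 arrays, exact p = 0.5, adjusted 0.625). The joint alpha-globin signal minus Hbb was 0.51, 0.70 and 0.31 on runner arrays A, B and C, against 0.67, -0.77 and 0.65 on non-runner arrays A, B and C. Non-runner B was the 1 array with less alpha signal relative to Hbb, and the other 5 lay within 0.31 to 0.70 (group difference 0.33, exact p = 0.8, adjusted 0.8). Without non-runner B the group difference turned to -0.17. The joint beta-globin signal minus Hbb was 0.58, 0.73 and -0.17 on runner arrays A, B and C, against 1.08, 1.03 and 0.90 on non-runner arrays A, B and C. All runners lay below all non-runners, by -0.62 on average (exact p = 0.1, adjusted 0.5). Without runner C, the lowest array, the group difference was -0.36.

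**Figure D3:**
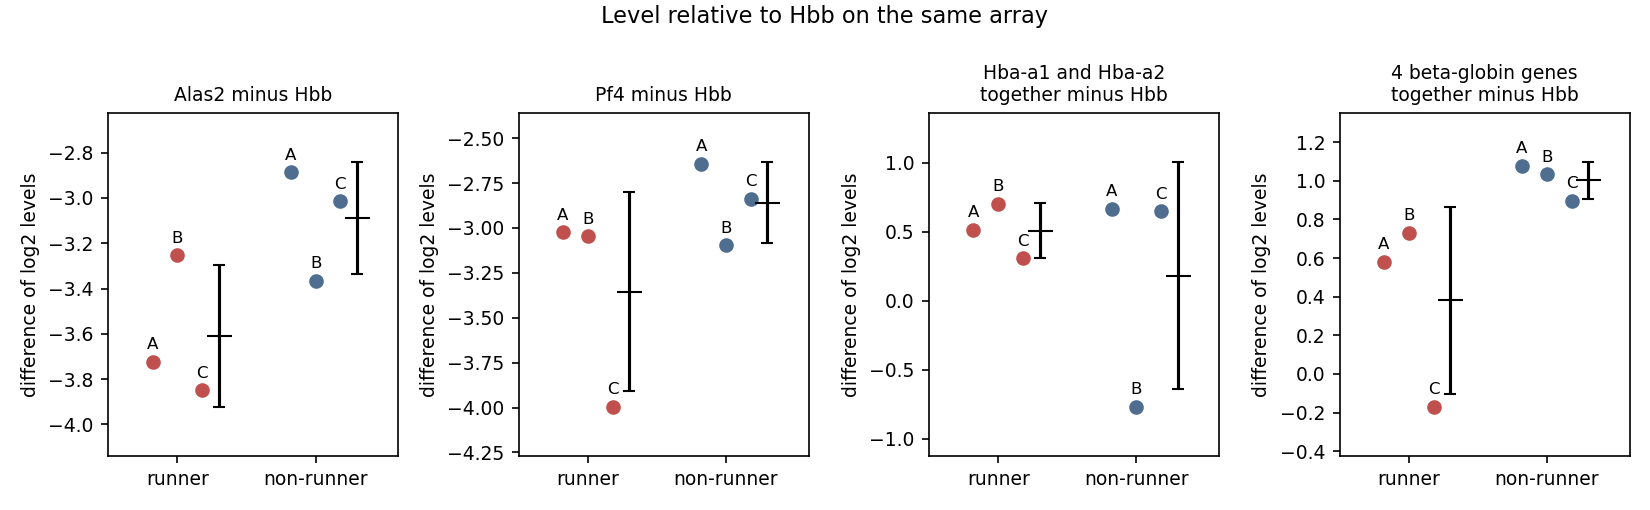
Difference of log2 levels from Hbb on the same array, runners left and non-runners right, with letters for the arrays and the mean ± SD (n = 3). Runner C is lowest relative to Hbb for Alas2 (-3.85), Pf4 (-4.00) and the joint beta-globin signal (-0.17), and non-runner B is lowest for the joint alpha-globin signal (-0.77).

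Genes with the most similar course over the 6 arrays were named by the highest Pearson r of log2 levels, among 4318 tested probe sets of other genes, as a description of 6 points. For Hbb these were Clcn4, a chloride transporter of endosomes (r = 0.99), Adk, adenosine kinase (0.98), Slc16a3, a lactate transporter (0.97), Nxpe5l3 (0.97) and Cntn2, a nerve cell adhesion protein (0.97). Slc16a3 measured 67.2, 67.6 and 99.4 on runner arrays A, B and C, against 44.2, 60.7 and 49.9 on non-runner arrays A, B and C. Its peak on runner C follows from its being picked for likeness to Hbb. For Pf4 they were Rpl27, a ribosomal protein (0.99), Grk6, a receptor kinase (0.98), Stx4, of vesicle fusion (0.98), Urod, an enzyme of haem synthesis (0.97), and Ier3, an early response gene (0.97). In all, 17 of the 4318 probe sets had r above 0.9 with Hbb and 25 with Pf4. How many unrelated probe sets would reach that r over 6 arrays was not tested, so these counts show no shared regulation. Clcn4 lay below the control level on all non-runner arrays, and Grk6 lay between 24.4 and 43.6 over the 6 arrays.

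The haem pathway, of which Alas2 is 1 of 5 genes on the chip, gave positive differences in runners, and 0 of 5 genes passed limma's adjusted threshold. At an unadjusted limma p under 0.05, 1 of 5 was higher, against 3.87% of all tested probe sets. All 5 were higher in runners by their fitted difference, with a median log2 difference of 0.32 against 0.00 over all tested probe sets. Urod, uroporphyrinogen decarboxylase, measured 108.5, 109.1 and 109.3 on runner arrays A, B and C, against 85.4, 88.2 and 70.7 on non-runner arrays A, B and C. Its groups did not overlap, as was so with runners higher for 7.23% of all tested probe sets. The runners were almost equal, and the log2 difference of Urod was 0.42 ± 0.15 (SE, limma adjusted p = 0.572). Alad, which joins aminolevulinate molecules in the next step, had overlapping groups and averaged 87.1 ± 1.5 in runners, against 72.5 ± 13.2 in non-runners. Alas1, the form of the first enzyme found in all tissues, averaged 61.3 ± 1.7 in runners and 50.5 ± 17.9 in non-runners, with the low value of 30.8 on non-runner A. Ppox, protoporphyrinogen oxidase, averaged 26.2 ± 6.6 in runners and 20.3 ± 3.6 in non-runners, below the control level on all arrays.

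The other genes listed for red cells differed little between the groups, but which cells of the aorta samples carried them was not measured. Of 15 genes for the red cell membrane, enzymes and regulators on the chip, 12 were tested, 8 were higher and 4 lower, 0 passed in either direction (also 0 at an unadjusted p under 0.05), and the median log2 difference was 0.03, or -0.01 with arrays centred on their medians. Slc4a1, the band 3 anion exchanger of the red cell membrane, averaged 85.7 ± 13.3 in runners and 95.9 ± 8.2 in non-runners. Rhd, a Rh blood group protein, measured 54.2, 72.4 and 82.2 on runner arrays A, B and C, against 61.6, 59.7 and 58.9 on non-runner arrays A, B and C, so runner A was lowest and runner C highest, as for Alas2. Slc2a1, a glucose transporter, averaged 78.1 ± 12.4 in runners and 94.7 ± 19.1 in non-runners, and Bnip3l, which clears mitochondria from maturing red cells, averaged 335 ± 16.3 in runners and 388 ± 101 in non-runners. Gata1, a master regulator of red cell precursors, lay below the control level on all 6 arrays, at 23.7 ± 6.2 in runners and 21.0 ± 3.7 in non-runners. Epb41 and Rhag also lay below that level on all 6 arrays, and Add2, Epor and Pklr were too dim to be tested.

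Iron handling genes had 6 of 7 tested, with 5 higher, 1 lower and 0 past the threshold. At an unadjusted limma p under 0.05, 1 of 6 was higher, against 3.87% of all tested probe sets. The median log2 difference was 0.16, or 0.084 without non-runner A and 0.28 without non-runner C. Ireb2, an iron regulatory protein that binds RNA, averaged 42.4 ± 6.7 in runners and 23.3 ± 1.8 in non-runners, above the control level on 1 array only. Hfe, which adjusts iron uptake, averaged 70.5 ± 7.4 in runners and 55.6 ± 11.5 in non-runners. Aco1, cytosolic aconitase and also an iron regulatory protein, averaged 279 ± 9.6 in runners and 238 ± 8.4 in non-runners. Cp, the copper protein that oxidizes iron, averaged 73.3 ± 10.9 in runners and 94.0 ± 18.2 in non-runners, but 1 of its 3 probe sets had the opposite sign. Tfrc, the transferrin receptor, abundant in red cell precursors, was too dim to be tested, at 8.3 ± 4.6 in runners and 8.7 ± 2.5 in non-runners.

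Genes that clear haemoglobin and haem had 5 of 5 tested, with 2 higher, 3 lower, 0 past the threshold (also 0 at an unadjusted p under 0.05) and a median of -0.17. That median was -0.011 without runner A, -0.0041 without non-runner A and -0.044 when the fit took account of the beta-actin ratio. Hmox1, the inducible haem oxygenase, measured 46.7, 83.5 and 66.8 on runner arrays A, B and C, against 98.9, 69.1 and 56.1 on non-runner arrays A, B and C. Its groups overlapped widely, and runner C lay within the range of the non-runners. Blvra, biliverdin reductase, averaged 118 ± 3.7 in runners and 135 ± 16.4 in non-runners, and Hmox2, the constant haem oxygenase, averaged 44.3 ± 5.7 in runners and 49.4 ± 2.5 in non-runners, but 1 of the 2 probe sets of Hmox2 had the opposite sign. Hpx, haemopexin, which binds free haem, averaged 28.9 ± 5.9 in runners and 25.8 ± 6.1 in non-runners, below the control level on all arrays.

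Platelet and megakaryocyte genes, a list that includes Pf4, did not share its separation of the groups in the members named here. Of 15 on the chip, 9 were tested, 6 were higher and 3 lower, 0 passed, and the median log2 difference was 0.04. That median was 0.20 with no filter on dim probe sets and -0.08 without non-runner C. At an unadjusted limma p under 0.05, 1 of 9 (Pf4) was higher, against 3.87% of all tested probe sets. F13a1, a clotting factor subunit of platelets and macrophages, averaged 89.0 ± 11.7 in runners and 66.4 ± 37.5 in non-runners. Itgb3, the beta chain of the platelet fibrinogen receptor, averaged 35.2 ± 4.6 in runners and 29.3 ± 4.5 in non-runners, below the control level on all arrays. Selp, P-selectin of platelets and endothelium, averaged 42.9 ± 5.3 in runners and 53.9 ± 16.5 in non-runners.

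Markers of white cells, the other cells of blood, were often dim. Of 19 on the chip only 8 passed the filter, 5 were higher and 3 lower, 0 passed the test (also 0 at an unadjusted p under 0.05), and the median was 0.04, with a sign that changed in 4 of 15 alternatives. Ptprc, the common leukocyte antigen, measured 36.3, 38.8 and 38.3 on runner arrays A, B and C, against 48.6, 31.7 and 39.1 on non-runner arrays A, B and C. The neutrophil genes S100a8 and S100a9 lay below the control level on all arrays, with S100a8 at 3.8 ± 1.8 in runners and 2.6 ± 1.8 in non-runners. Cd14, a monocyte receptor, averaged 90.0 ± 5.0 in runners and 78.9 ± 15.0 in non-runners, with the opposite sign in 1 of its 2 probe sets, and Lyz2, the lysozyme of macrophages, averaged 786 ± 116 in runners and 720 ± 76.4 in non-runners. The T cell genes Cd5 and Cd8b were dim, with Cd5 at 25.7 ± 4.3 in runners and 21.1 ± 7.1 in non-runners, and Cd8b at 36.9 ± 4.8 in runners and 40.3 ± 7.6 in non-runners. The tested clotting factors and inhibitors numbered 5 of 13, with 1 higher, 4 lower, 0 past the threshold (also 0 at an unadjusted p under 0.05) and a median of -0.05. Tfpi, which blocks tissue factor, averaged 40.4 ± 1.7 in runners and 35.4 ± 2.7 in non-runners, above the control level on 2 arrays only. Pros1, protein S, a cofactor that slows clotting, averaged 108 ± 31.6 in runners and 123 ± 21.2 in non-runners.

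Markers of the cells of the vessel and its surroundings were summed on each array to show what else varied. Each sum follows its brightest probe sets and includes genes too dim to be tested, so it is a description only. Smooth muscle markers (7 of 7 above the filter) summed to 16425 to 16556 in runners and 15249 to 18826 in non-runners, with a median log2 difference of 0.04, or -0.01 with arrays centred on their medians. Endothelial markers (6 of 8 tested) summed to 528 to 543 in runners and 555 to 681 in non-runners, with a median of -0.26, which was -0.06 with no filter and -0.44 with the dimmest 60% left out. Egfl7, a secreted endothelial protein, was singled out after its values were seen. It averaged 28.6 ± 12.3 in runners, below the control level on all runner arrays, and 118.8 ± 28.3 in non-runners. Without Egfl7 the endothelial sums were 505 to 514 in runners and 414 to 594 in non-runners, which overlap, and the median was -0.07. Brown fat markers (3 of 4 tested) summed to 1427 to 2494 in runners and 1360 to 2545 in non-runners, with a median of -0.01. Adipocyte markers (7 of 7) summed to 3084 to 3397 in runners and 2667 to 3460 in non-runners, with a median of 0.09. Nerve and Schwann cell markers (5 of 6) summed to 1064 to 1183 in runners and 1384 to 1595 in non-runners, with a median of -0.43. The largest part of that sum was Pmp22, at 790 ± 22.2 in runners and 1010 ± 142 in non-runners, and all 5 tested genes of the list were lower in runners. In these lists 0 genes passed limma's adjusted threshold, with 3 endothelial, 3 nerve and 1 adipocyte gene lower and 1 adipocyte gene higher at an unadjusted p under 0.05, against 4.21% lower and 3.87% higher among all tested probe sets. The brown fat score, the mean centred log2 level of its tested genes, was -0.51 on runner C and -0.53 on non-runner B, against 0.10 to 0.34 on the other 4 arrays. The part of these marker differences in the globin signals was not tested.

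**Figure D4:**
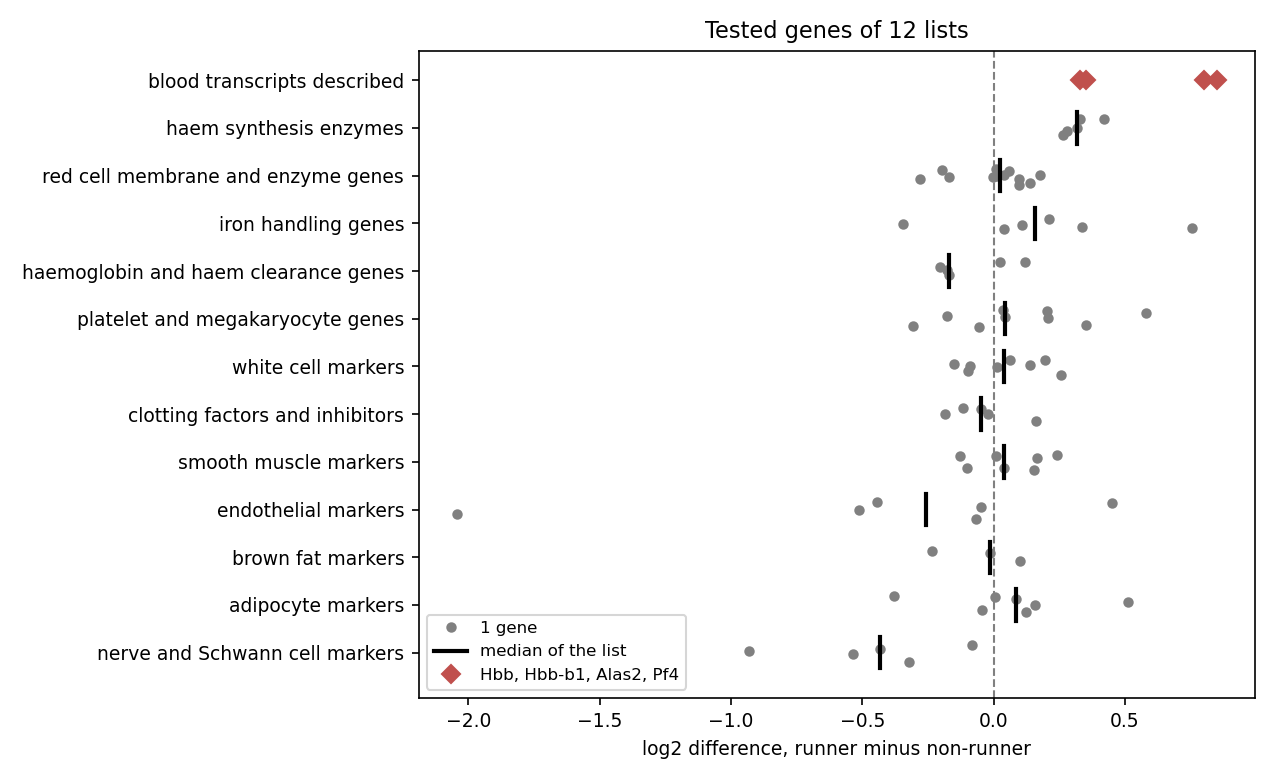
Log2 difference, runner minus non-runner, of each tested gene (grey points, brightest tested probe set of a gene, shifted up or down at random for visibility) in 12 lists, with the list median as a black bar. The top line shows Hbb, Hbb-b1, Alas2 and Pf4 as diamonds, between 0.33 and 0.85, and the haem synthesis genes below it, which include Alas2, have a median of 0.32.

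The chip also holds other globin genes, which are named here after their values were seen. Hbg1, named as a gamma-globin, was dim in both of its probe sets, with means of 7.9 ± 1.1 and 5.0 ± 1.0 in runners, against 3.8 ± 0.6 and 3.6 ± 1.2 in non-runners. Hba-a3, an alpha-globin relative, averaged 13.4 ± 6.2 in runners and 14.2 ± 4.1 in non-runners, and Hbe1, named as an epsilon-globin, averaged 19.1 ± 5.3 in runners and 13.3 ± 8.6 in non-runners. All of those means lay below the control level of 40.8. Hbe2, also named as an epsilon-globin, measured 48.3, 83.4 and 100.2 on runner arrays A, B and C, against 87.3, 108.2 and 88.7 on non-runner arrays A, B and C. The groups of Hbe2 overlapped (log2 difference -0.33 ± 0.25 SE, limma adjusted p = 0.752), and here runner C was not the highest array.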

How the data were processed

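The authors deposited 1 intensity per probe set and array on a linear scale for 6 arrays. The software that made them was not given in the sources used here. The table has no detection calls. The mean of each array without its highest and lowest 2% was 100.0, as scaling to a common target would give. Precision is limited by the number of arrays. Gene symbols came from the platform annotation (7006 probe sets with 1 symbol, 308 with several, 1426 with none). From the deposited intensity, log2 values were computed after adding 2.4, the 10th percentile of positive values. Array medians differed by up to 1.13 times, more than 1.1, and quantile normalization was therefore applied to the log2 values. A filter removed 59 control probe sets and, by mean signal, the lowest 40% of the rest, which left 5244 to be fitted with limma 3.58.1 in R 4.3.3 (lmFit, eBayes). Exact permutation tests were used for within-array differences. The fit was tested on simulated data. For a gene with several probe sets the brightest tested one was used.

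The genes, the 12 lists and the tests were chosen with earlier results of these data known. Beside the chosen genes, the text names up to 4 genes of a list by the smallest limma p, all 5 haem synthesis genes, and 5 genes most like Hbb and like Pf4. Gata1, Epb41, Rhag, Add2, Epor, Pklr, Tfrc, Ptprc, S100a8 and S100a9 were added after their values were seen. Alternatives were other pseudocounts, scalings, filters and variance models, a replicate block, and leaving out each array. Upstream sequences were searched and aligned with Biopython 1.88, and figures were drawn with matplotlib 3.10.9.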

Additional observations from a re-analysis of the deposited data

How the results depend on the processing

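The differences of Hbb, Hbb-b1, Alas2 and Pf4 kept their upward sign in all 15 alternatives run for each, and 0 passed limma's adjusted threshold in any. With all 6 arrays kept, the log2 difference was 0.77 to 0.92 for Hbb, 0.75 to 0.80 for Hbb-b1, 0.27 to 0.33 for Alas2 and 0.30 to 0.36 for Pf4, and as arrays were left out it was 0.51 to 1.04 for Hbb, 0.38 to 1.02 for Hbb-b1, 0.10 to 0.55 for Alas2 and 0.31 to 0.38 for Pf4. Probe sets past the threshold numbered 0 higher and 0 lower with 6 arrays (limma, 298 to 617 at an unadjusted p under 0.05) and 0 to 4 higher and 0 to 1 lower as arrays were left out: Pdlim2 higher and Plpp2 lower without non-runner A, and Rbfox2, Erbb2 and 2 probe sets without a symbol higher without non-runner C, named after their values were seen. Same-lettered pools were not treated as pairs, since nothing in the labels says that the letters pair them. Deviations of same-lettered arrays from their group means correlated at -0.09, -0.04 and -0.05, and 0 of 3 letters matched best with their own. With so few arrays these correlations cannot settle whether the pools were paired. With the letter as a replicate block limma's unadjusted p was 0.0261 for Hbb, 0.0537 for Hbb-b1 and 0.0812 for Pf4 (adjusted p = 0.702 to 0.722). Within arrays, Hbb-b1 minus Hbb was -0.13 to 0.025 as arrays were left out, the last without non-runner A, and the joint alpha-globin signal minus Hbb was -0.17 to 0.58, the lowest without non-runner B. The cause was not tested. List medians that changed sign in some alternative were those of red cell, platelet, white cell, smooth muscle, brown fat and adipocyte genes. Signal near or below the control level of 40.8 limits what can be said of Alas1, Ppox, Epb41, Rhag, Gata1, Ireb2, Hpx, Itgb3, Tfpi, Clcn4 and Grk6. The same holds for Egfl7 in runners and for the dim white cell markers. Of the white cell markers named here, Cd14 and Lyz2 lay above that level on all 6 arrays.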
